A study of Mus musculus with 2 samples.

Results

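The genes described here are 7 that healthy adult β-cells keep at low levels although most other tissues use them: Ldha, Slc16a1, Hk1, Rest, Oat, Acot7 and Zfp36l1. They were taken by gene symbol from a table of 17245 genes, and all 7 were in it. RNA came from islets of mice, hand-picked after collagenase digestion of the pancreas and then kept in culture medium. One group was wild type (WT) and the other a β-cell knockout (KO) of cGAS, an enzyme that senses DNA in the cytosol, with 1 library for each genotype. The driver of recombination, the deleted exon, and the age and number of the mice are not stated in the sources used here. The library totals recovered from the values were 19097001 reads for WT and 14537660 for KO. With 1 library per genotype no difference has a replicate check and no p-value is given. RNA of Cgas itself was at 0.205 FPKM in the WT library and 0.521 FPKM in the library labelled KO, so RNA of the targeted gene was not lower under the KO label, and every direction below is between libraries as labelled. Where 2 values are joined by "and" or "against" without a library's name, the library labelled KO comes first.

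A β-cell reads blood glucose by burning it: glucose is phosphorylated in step with its concentration, and nearly all pyruvate goes into mitochondria, where it drives ATP production and insulin release. Genes that would bypass this link are kept low, and they are often called disallowed or forbidden genes of the β-cell. A high-affinity hexokinase would phosphorylate glucose during fasting, lactate dehydrogenase A would divert pyruvate to lactate, and a plasma-membrane monocarboxylate carrier would let muscle pyruvate trigger insulin release during exercise. Other members of the set are a repressor of neuronal genes, an mRNA-decay factor, an amino-acid enzyme and an acyl-CoA thioesterase. Islets also hold α-, δ- and PP-cells, endothelium, pericytes and macrophages, and many of these express the same genes freely.

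All 7 genes had a higher value in the library labelled KO, and 1 of them, Zfp36l1, was at least 2-fold higher on the scale used for calls. That scale is log2((KO + 1)/(WT + 1)) of FPKM, fragments or reads per kilobase of gene and per 1000000, and it understates differences of low genes. Of the 12428 genes that reached 1 FPKM in 1 library or both, 6.98% were at least 2-fold higher, 3.88% were at least 2-fold lower, and 54.4% had a value above 0. None of the 7 was at least 2-fold lower. The median of the 7 log2 ratios was 0.43, against 0.077 over all 12428 genes, whose quartiles were -0.35 and 0.51. Slc16a1 and Rest stayed below 1 FPKM and are not among the 12428, and the other 5 members had a median of 0.55. The interval of the ratio, which covers counting error only, lay above 1 for 4 of the 7 (Zfp36l1, Ldha, Acot7 and Hk1) and held 1 for the other 3 (Slc16a1, Rest and Oat). For comparison, 42.1% of 12406 expressed genes with an interval had one above 1, so an interval of this kind is a common outcome between these libraries.

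**Figure D1:**
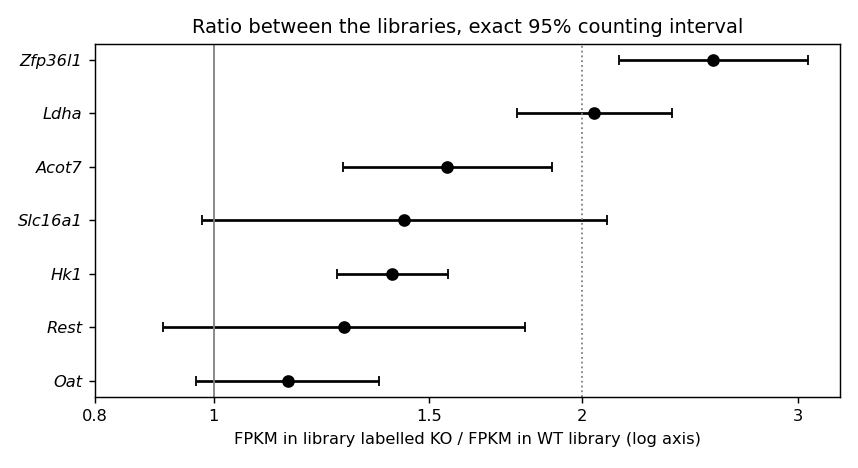
Ratio of FPKM in the library labelled KO to FPKM in the WT library for each of the 7 genes, on a log axis. Points are ratios from 1 library per genotype, bars are exact Clopper-Pearson 95% intervals for counting error, and lines mark ratios of 1 and 2. Ratios run from 1.15 for Oat to 2.56 for Zfp36l1, and the intervals of Oat, Rest and Slc16a1 hold 1.

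Levels of the 7 genes were low beside those of genes that mark β-cells. In the WT library they ran from 0.506 FPKM for Rest to 7.02 FPKM for Oat, and in the library labelled KO from 0.646 FPKM for Rest to 17.3 FPKM for Zfp36l1. The median of 13 β-cell markers was 398 FPKM in the WT library and 309 FPKM in the library labelled KO. The lowest of these markers were Trpm5, a cation channel, at 14.8 FPKM in the WT library, and Glp1r, the GLP-1 receptor, at 17.9 FPKM in the other. Every one of the 7 genes thus lay below every one of the 13 markers within each library, though Zfp36l1 came close to Glp1r in the library labelled KO. The 5 higher genes lay above the median gene, which was at 3.89 FPKM in the WT library and 4.0 FPKM in the other, and Slc16a1 and Rest were below 1 FPKM in both libraries.

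The order of the 7 levels changed in its upper part. In the WT library Oat (exact Poisson 95% interval 6.24 to 7.88 FPKM), Hk1 (6.35 to 7.37 FPKM), Zfp36l1 (5.85 to 7.80 FPKM) and Ldha (5.33 to 6.69 FPKM) had overlapping intervals. No order among them is claimed, and overlap alone does not show that levels are equal. Acot7 (4.36 to 5.82 FPKM) overlapped Ldha only. In the library labelled KO, Zfp36l1 (15.6 to 19.2 FPKM) and then Ldha (11.2 to 13.4 FPKM) stood above the others. Hk1 (8.91 to 10.3 FPKM), Oat (7.11 to 9.13 FPKM) and Acot7 (6.85 to 8.92 FPKM) followed, each interval overlapping its neighbour's. Slc16a1 and Rest overlapped each other in both libraries.

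**Figure D2:**
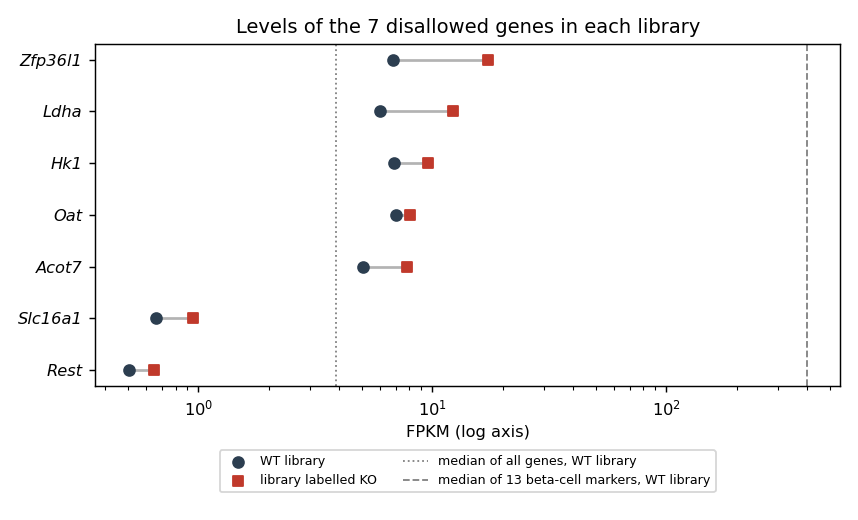
FPKM of each of the 7 genes, on a log axis, in the WT library (circles) and the library labelled KO (squares). The dotted line is the median of all 17245 genes and the dashed line the median of 13 β-cell markers, both in the WT library. Slc16a1 and Rest lie below 1 FPKM, the other 5 genes lie between 5.05 and 17.3 FPKM, and every square lies to the right of its circle.

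Entry of glucose into glycolysis was compared first. Hk1 encodes hexokinase 1, a high-affinity enzyme inhibited by its own product, and lies on chromosome 10 from 62268855 to 62379920 on the minus strand (GRCm38.p6). The level of Hk1 was 6.85 FPKM in the WT library and 9.58 FPKM in the library labelled KO, a ratio of 1.40 (1.26 to 1.55) and a log2 ratio of 0.43. With a trend of the ratios on GC content and transcript length removed, the Hk1 value was 0.17.

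Hk1 held most of the RNA of 4 hexokinase genes, Hk1, Hk2, Hk3 and Hkdc1, in both libraries. It made up 86.5% (83.7 to 89.0%) of their summed FPKM in the library labelled KO and 89.02% (86.3 to 91.4%) in the WT library, intervals that overlap. These shares do not move with the scaling of a library. Their intervals are binomial ones of the read share, for counting error, carried to the FPKM scale at the observed mix of lengths and thus approximate. Hk3, the hexokinase of myeloid cells, was at 1.11 and 0.590 FPKM. Hk2, the insulin-regulated enzyme of muscle and fat, was at 0.298 and 0.201 FPKM, and Hkdc1 was lower still.

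The conversion of pyruvate to lactate was compared next. Ldha encodes the A subunit of lactate dehydrogenase, the form that favours lactate production, and lies on chromosome 7 from 46842274 to 46855627 on the plus strand. Its level was 5.98 FPKM in the WT library and 12.2 FPKM in the library labelled KO, a ratio of 2.05 (1.77 to 2.37). The log2 ratio with a pseudocount of 1 was 0.92, short of the 2-fold limit, at percentile 91.2 of all expressed genes. With a pseudocount of 0.1 it was 1.02, past the limit. Ldha stood second of the 7 in the size of its ratio.

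Other lactate dehydrogenase genes were higher in the same library. Ldhb, which encodes the B subunit typical of heart, was at 28.0 and 15.7 FPKM (ratio 1.78, 1.56 to 2.03), so it exceeded Ldha in both libraries. Ldhd, the mitochondrial D-lactate dehydrogenase, was at 8.25 and 3.24 FPKM, 2.55-fold higher (2.23 to 2.92), with a log2 ratio of 1.13 that was 0.69 with a pseudocount of 5. Ldhc, the form of germ cells, was at 5.53 and 2.90 FPKM (ratio 1.90, 1.04 to 3.55). Ldha made up 30.4% (27.8 to 33.2%) of the summed Ldha and Ldhb levels in the library labelled KO and 27.6% (24.6 to 30.7%) in the WT library. Those intervals overlap and do not resolve a change in the balance of the A and B subunits.

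The promoter of Ldha is shown because it carries, close to the start of transcription, the textbook elements through which oxygen, sugar and cyclic AMP act on this gene. The sequence is RefSeq's on GRCm38.p6, plus strand, chr7:46845554-46845853, from 250 bases before to 50 after a start site. Capitals mark the E-box CACGTG (2 matches), the hypoxia-response core ACGTG outside an E-box on either strand (1 match) and the cyclic-AMP response element TGACGTCA (1 match).
Ldha promoter: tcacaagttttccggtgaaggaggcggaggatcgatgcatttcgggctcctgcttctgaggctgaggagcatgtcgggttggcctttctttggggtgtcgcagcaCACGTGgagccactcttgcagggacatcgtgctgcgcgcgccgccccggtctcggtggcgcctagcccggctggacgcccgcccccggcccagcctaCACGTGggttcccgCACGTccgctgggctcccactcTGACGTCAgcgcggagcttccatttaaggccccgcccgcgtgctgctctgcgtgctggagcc
A second start of Ldha in the same table, at chr7:46846832-46847131, held none of these letters. The window of Slc16a1 follows because its product moves the lactate that Ldha makes. It lies at chr3:104638414-104638713 on the plus strand and has the same marks, with 1 E-box and 1 ACGTG outside it.
Slc16a1 promoter: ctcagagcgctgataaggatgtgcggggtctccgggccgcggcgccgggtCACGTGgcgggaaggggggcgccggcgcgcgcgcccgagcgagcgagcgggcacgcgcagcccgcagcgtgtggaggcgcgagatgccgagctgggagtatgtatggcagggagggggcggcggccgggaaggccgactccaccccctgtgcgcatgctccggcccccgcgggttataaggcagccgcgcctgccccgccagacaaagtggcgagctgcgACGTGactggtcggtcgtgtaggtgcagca
ACGTG on either strand, E-boxes included, was found in 19.6% of 32851 windows of this length, CACGTG in 7.15% and TGACGTCA in 1.79%. Of the 8 windows of 6 members in the table, 4 held ACGTG (1 start each of Ldha, Slc16a1, Hk1 and Oat), 2 held CACGTG and 1 held TGACGTCA. All 3 motifs contain CpG, and the 4 windows with ACGTG held 20 to 42 CpG, against a median of 7 over all windows. Member windows without ACGTG held 1 to 15. Windows rich in CpG thus offer more places for a match. A match is a description of the letters and not evidence of binding.

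Slc16a1 encodes MCT1, the carrier that moves lactate and pyruvate with a proton across the plasma membrane, and lies on chromosome 3 from 104638664 to 104658462. MCT1 RNA was at 0.662 FPKM in the WT library and 0.947 FPKM in the library labelled KO. The ratio was 1.43 with an interval of 0.979 to 2.09, so a difference was not detectable at this depth, and a ratio as high as 2.09 lies inside the interval. The log2 ratio was 0.23, or 0.58 with the trend on GC content and length removed. The RNA of MCT1 was scarce in both libraries, at percentiles 28.6 and 28.4 of all genes. Slc16a3, the lactate exporter MCT4 of glycolytic cells, was at 0.878 and 0.258 FPKM (ratio 3.4, 1.90 to 6.35), also below 1 FPKM in both. Slc16a1 made up 40.1% (32.7 to 47.8%) and 46.1% (38.1 to 54.1%) of the summed level of 4 monocarboxylate carrier genes, intervals that overlap.

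MCT1 needs a glycoprotein partner to reach the membrane. Bsg, which encodes that partner basigin, was abundant at 296 and 259 FPKM (log2 ratio 0.20). Emb, the related chaperone embigin, was at 66.5 against 122 FPKM (log2 ratio -0.87). The carrier itself, and not its chaperones, was thus the scarce RNA in these islets.

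Mature miR-29 RNAs are shown because they are known to hold Slc16a1 down in β-cells. The 3 family members share 1 seed, bases 2 to 8, given in capitals, with sequences from RefSeq.
miR-29a-3p: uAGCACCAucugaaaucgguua
miR-29b-3p: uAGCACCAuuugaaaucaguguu
miR-29c-3p: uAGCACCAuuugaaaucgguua
The 7-base match to that seed, TGGTGCT, was searched in the 3′ untranslated region of the longest coding GENCODE M21 transcript of each gene. It was present once each in Slc16a1, Rest and Zfp36l1 and not in the regions of Ldha, Hk1, Oat or Acot7, and it occurred in 12.97% of 20940 genes. The sites follow in the sense of the transcript, on GRCm38, with the match in capitals.
Slc16a1 site, chr3:104655788-104655810, plus strand: tctaccagTGGTGCTcagtgcag
Rest site, chr5:77283537-77283559, plus strand: ttttatttTGGTGCTtttctggc
Zfp36l1 site, chr12:80108747-80108769, minus strand: cttgatttTGGTGCTaaagttcc
The regions of these 3 genes were the longest of the 7, at 2740, 3448 and 1835 bases against 283 to 1054 in the others, so they also offer more places for a match. Mature miRNAs were not measured in these libraries.

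Genes of the routes that take NADH and pyruvate into mitochondria, the alternative to lactate in a β-cell, lay on both sides of 0. Of 10 genes of the glycerol-phosphate and malate-aspartate shuttles, 8 had a value below 0 and none was past 2-fold, with a median log2 ratio of -0.34. The 2 above 0 were Mdh2, the mitochondrial malate dehydrogenase (0.21), and Slc25a11, the oxoglutarate carrier (0.10), and both were below 0 after removal of the GC and length trend (-0.32 and -0.30). Gpd2, the mitochondrial glycerol-phosphate dehydrogenase that is high in β-cells, was at 10.1 against 15.1 FPKM, 1.497-fold lower (1.38 to 1.63) in the library labelled KO. Mdh1, the cytosolic malate dehydrogenase, was at 87.2 against 123 FPKM, 1.41-fold lower (1.34 to 1.48). With the trend removed the log2 ratio was -0.21 in place of -0.54 for Gpd2, and -0.40 in place of -0.49 for Mdh1. The median of the 10 genes was then -0.33. In FPKM as deposited, Mdh1 exceeded Ldha 20.6-fold in the WT library and 7.13-fold in the library labelled KO. Gpd2 was 2.53-fold above Ldha in the first and 0.825 of it in the second. Of 14 expressed genes of lactate and pyruvate handling other than Ldha and Slc16a1, 1 passed the limit upwards (Ldhd) and none downwards, and the median was -0.054. With sums of 1000000, Pdk4 and Emb were past the lower limit at -1.12 and -1.02, and with the trend removed Ldhd was at 0.71, no gene of the list was past the limit and the median was -0.37. The 2 subunits of the mitochondrial pyruvate carrier differed in direction: Mpc2 was at 40.5 against 30.4 FPKM, a ratio of 1.33 (1.11 to 1.60), the direction of Ldha, and Mpc1 at 8.36 against 10.4 FPKM, a ratio of 0.806 (0.670 to 0.967). Without the trend the Mpc2 value was -0.15. Of the enzymes that take up pyruvate inside mitochondria, pyruvate carboxylase Pcx (-0.051) and the dehydrogenase subunit Pdhb (0.0065) had log2 ratios near 0, and the subunit Pdha1 was at 23.0 against 39.6 FPKM (-0.76). Pdk4, a kinase that shuts off pyruvate dehydrogenase, was at 6.79 against 14.1 FPKM (log2 ratio -0.96).

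**Figure D3:**
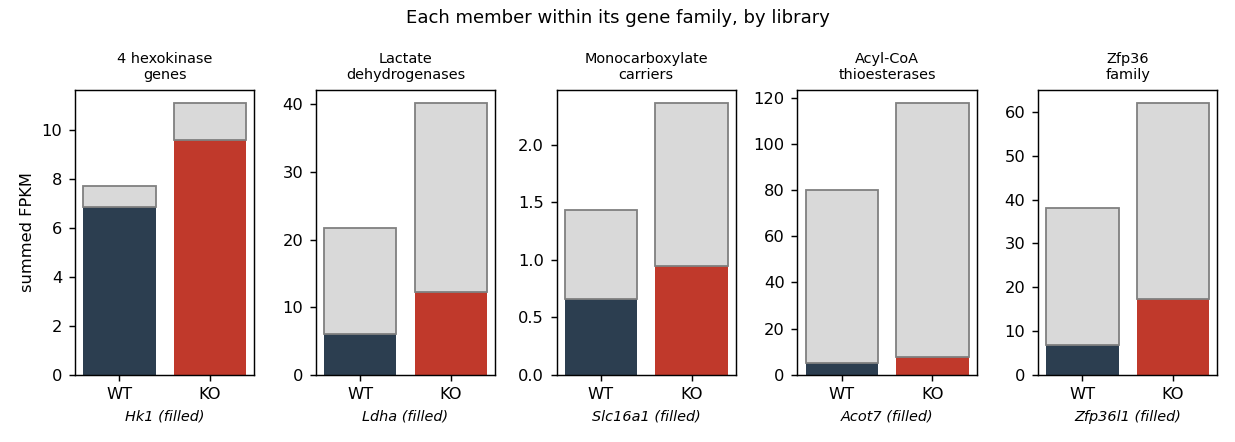
Summed FPKM of 5 groups of related genes in the WT library and the library labelled KO (1 library each), with the disallowed member as the filled lower part and its relatives in grey. Each panel has its own scale from 0. The summed bars are higher in the library labelled KO, Hk1 fills most of its panel (86.5% and 89.02%), and Zfp36l1 fills a larger share of the Zfp36 family there (27.9% against 17.8%).

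Rest encodes the zinc-finger repressor REST, which silences neuronal genes outside the nervous system and is shut off in neurons and endocrine islet cells. It lies on chromosome 5 from 77265494 to 77286432. The WT library held it at 0.506 FPKM and the library labelled KO at 0.646 FPKM, at percentile 25.9 of all genes in the first and 25.01 in the second. The ratio was 1.28 with an interval of 0.908 to 1.796, and no difference was detectable at this depth. Rest had the lowest value of the 7 in each library, with an interval that overlapped that of Slc16a1 in both.

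Genes around REST were spread on both sides of 0. Of 12 corepressor genes none was past 2-fold, with a median log2 ratio of 0.13 and 8 above 0. With sums of 1000000 Rcor1 was past it (-1.03) and the median was -0.010. With the GC and length trend removed, 4 of the 12 lay above 0 and the median was -0.14. The widest as reported were Rcor1, the CoREST scaffold (-0.87), Sin3a, a second scaffold (-0.65), the histone methyltransferase Ehmt2 (0.64) and the deacetylase Hdac2 (-0.61). Of 27 neuroendocrine genes known to carry REST elements, 1 passed the limit downwards and none upwards, with a median of -0.058 and 12 above 0. The lower gene was the granin Scg2, at 868 against 2684 FPKM. Gjd2, which encodes the β-cell gap-junction protein connexin 36, was at 40.3 against 70.1 FPKM (log2 ratio -0.78). Unc13a, a vesicle-priming protein, was on the other side at 31.3 against 18.5 FPKM (0.73). After removal of the trend on GC content and length, 2 of the 27 genes were past the lower limit and their median was -0.43, against -0.013 for all genes.

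Zfp36l1 was the 1 member past the 2-fold limit. It encodes a CCCH zinc-finger protein that binds AU-rich elements and brings mRNAs to the deadenylase, and it lies on chromosome 12 from 80107760 to 80113013 on the minus strand. It was at 6.77 FPKM in the WT library and 17.3 FPKM in the library labelled KO, 2.56-fold higher (2.15 to 3.06). The log2 ratio was 1.24, at percentile 96.9 of expressed genes, and 0.92 with a pseudocount of 5. Exons of the lincRNA Gm26669 on the opposite strand cover 55.9% of the exonic bases of Zfp36l1 in GENCODE M21. Strand settings of the counting are not given, so reads of both genes cannot be told apart there.

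The paralogs of Zfp36l1 did not move together. Zfp36, the immediate-early member also called tristetraprolin, was at 33.8 and 16.5 FPKM (ratio 2.05, 1.84 to 2.28), just short of the limit with a log2 ratio of 0.99. Zfp36l2 was lower, at 10.9 against 14.8 FPKM, 1.36-fold (1.22 to 1.51). Zfp36l1 therefore made up 27.9% (25.6 to 30.3%) of the 3 genes' summed FPKM in the library labelled KO and 17.8% (15.6 to 20.1%) in the WT library. Zfp36l1 stood 1.59-fold above Zfp36l2 in the first and at 0.457 of it in the second. Immediate-early genes as a list were higher in the same library: 8 of 13 expressed genes passed the 2-fold limit upwards, the median was 1.09 and the summed level was 325 against 163 FPKM. After removal of the GC and length trend the count was 4 of 13 (median 0.74), and with a pseudocount of 5 it was also 4 of 13 (median 0.75). Zfp36 is itself on that list, and the part of the listed genes in the Zfp36l1 value was not tested. In the list of Zfp36 paralogs and CCR4-NOT deadenylase subunits, none of 13 was past the limit and the median was -0.053, with Cnot6l at -0.99 (past the lower limit with sums of 1000000, at -1.15), Cnot10 at 0.64 and Cnot3 at 0.60.

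Oat encodes ornithine aminotransferase, a mitochondrial enzyme that links ornithine to glutamate and proline, and lies on chromosome 7 from 132557475 to 132576398 on the minus strand. Oat stood at 7.02 FPKM in the WT library and 8.08 FPKM in the library labelled KO, a ratio of 1.15 with an interval of 0.968 to 1.37. It was the smallest ratio of the 7, and the interval, which covers counting error only, reached up to 1.37. Of 17 expressed genes of arginine, ornithine, proline and glutamate metabolism, 2 passed the limit downwards and none upwards, and the median was -0.19. Gatm, the first enzyme of creatine synthesis, was at 7.70 against 26.6 FPKM, 3.45-fold lower (3.02 to 3.96). It is abundant in acinar cells, and all 11 acinar markers past 1 FPKM lay below the lower 2-fold limit too, with a summed level of 116 against 2024 FPKM. Their part in the Gatm value was not tested. Glul, glutamine synthetase, was at 103 against 216 FPKM, 2.11-fold lower (2.03 to 2.18). Azin1, an activator of polyamine synthesis, and Aldh18a1, the first enzyme of proline synthesis, had log2 ratios of -0.90 and -0.61.

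Acot7 encodes a cytosolic thioesterase that splits long-chain acyl-CoA, abundant in neurons, and lies on chromosome 4 from 152178100 to 152271855 on the plus strand. Acot7 stood at 5.05 FPKM in the WT library and 7.84 FPKM in the library labelled KO, a ratio of 1.55 (1.27 to 1.89) and a log2 ratio of 0.55. Once the trend on GC content and length was removed, the Acot7 value was -0.0052. Its longest coding transcript has a GC content of 56.2%, against a median of 50.5% for expressed genes, and a length of 1505 bases against 3109.

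None of the 9 other expressed thioesterase genes was past 2-fold, with a median of 0.11. Acot13, a mitochondrial thioesterase, was the most abundant at 71.0 and 40.2 FPKM (log2 ratio 0.81, or 0.31 without the trend). Them6, Acot9 and Acot8 had log2 ratios of 0.34, 0.37 and 0.35, and Them4, Acot1, Acot2, Acot6 and Acot11 lay between -0.27 and 0.11. Acot1 to Acot6 are close copies, so reads may be divided between them with error. Acot7 made up 6.66% (5.82 to 7.58%) of the family's summed FPKM in the library labelled KO and 6.32% (5.47 to 7.26%) in the WT library, intervals that overlap.

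A further 20 genes that have been called disallowed in β-cells or islets were read as a list. Of these, 18 were expressed, 4 passed the limit upwards and none downwards, and the median log2 ratio was 0.62. The 4 were Ly6a, a surface antigen (150 against 53.0 FPKM), Cxcl12, a chemokine of stromal cells (4.62 against 1.46 FPKM), Tgm2, tissue transglutaminase (18.9 against 8.37 FPKM), and Igfbp4, an IGF-binding protein (18.1 against 8.53 FPKM). Igfbp4 was at the limit with 1.00, and when the median ratio was set to 1 it was 0.92 and 3 of the 18 were past the limit. With each library scaled to a sum of 1000000, 2 of the 18 were past it, Ly6a and Cxcl12. With a pseudocount of 5, Ly6a alone was past it.

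**Figure D4:**
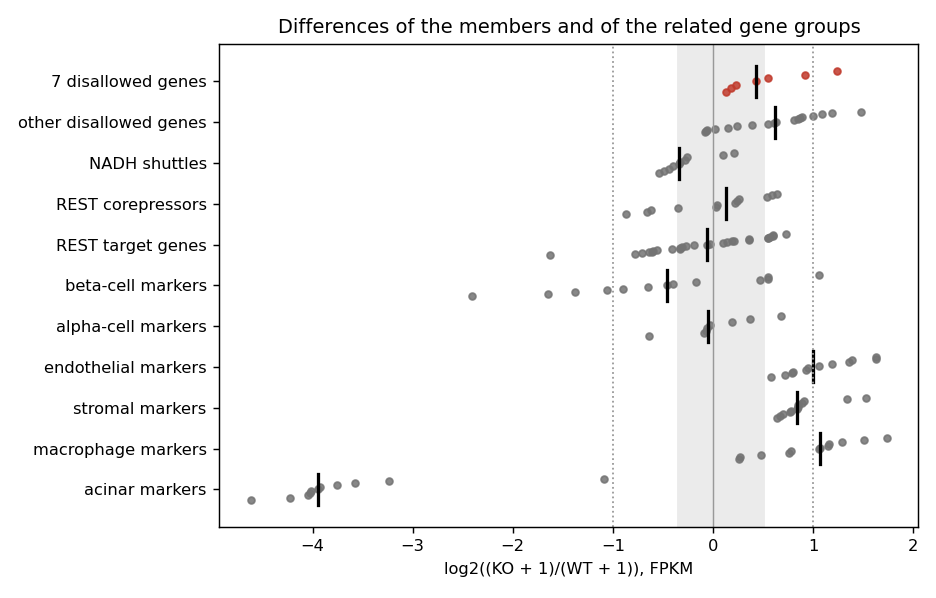
Differences between the libraries, log2((KO + 1)/(WT + 1)) of FPKM, for the 7 genes (red) and for expressed genes of related lists and cell type markers (grey), 1 point per gene. Black bars are medians, dotted lines mark 2-fold, and the grey band holds the middle of all expressed genes, from -0.35 to 0.51. The 7 genes have a median of 0.43, the further disallowed genes 0.62, endothelial, stromal and macrophage markers 1.00, 0.84 and 1.07, and β-cell markers -0.46.

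Markers of other cell types differed between the libraries, and whole-islet RNA does not show which cells the 7 genes' reads came from. Of 12 endothelial markers 6 were at least 2-fold higher (summed level 842 against 367 FPKM), of 12 stromal markers 2 (372 against 200 FPKM) and of 12 macrophage markers 7 (389 against 168 FPKM). All 36 lay above 0 and none was at 0 FPKM in either library. The macrophage count moved with the processing: it was 1 of 12 once the trend on GC content and length was removed (median 0.45 in place of 1.07), 3 with a pseudocount of 5 and 5 under each of the 3 scalings. The stromal count was 4 with the trend removed or with a pseudocount of 0.1, and 1 with a pseudocount of 5. The summed level of the 7 genes was 56.7 against 32.8 FPKM, a ratio of 1.73, against 2.29 for the endothelial, 1.86 for the stromal and 2.32 for the macrophage markers. Of 13 β-cell markers, 4 were at least 2-fold lower (Glp1r, G6pc2, Nkx6-1 and Slc2a2) and 1 higher (Ins1), with a median of -0.46. The Ins1 value of 1.06 was 0.91 to 0.97 under the 3 scalings and 0.79 without the trend, so no β-cell marker was past the upper limit there, while 4 or 5 were past the lower one. Slc2a2 was at -0.62 without the trend, short of the limit. None of 8 α-cell markers was past the limit (median -0.045), 1 of 6 δ- and PP-cell markers was higher (Pyy, with a log2 ratio of 1.16 that was 0.19 without the trend, where the list's median was 0.042 in place of 0.64), and none of 6 expressed ductal markers was past it (median 0.58). The part of these cell types in the values of the 7 genes was not tested, and fewer cells of a type cannot be told apart from less RNA per cell.

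**Figure D5:**
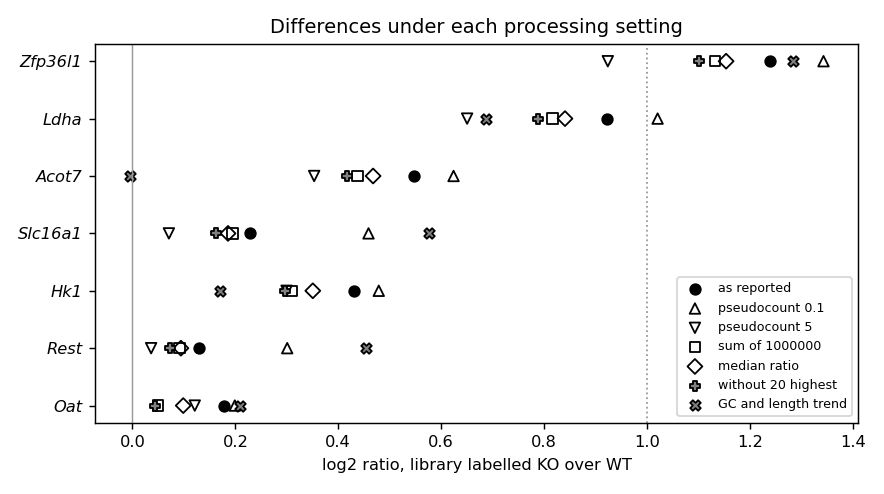
Log2 ratio of each of the 7 genes as reported (filled circles) and under 6 other processing settings (other symbols). The dotted line marks 2-fold. Zfp36l1 lies between 0.92 and 1.34 and Ldha between 0.65 and 1.02, and the Acot7 value after removal of the GC and length trend is the single point below 0.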

How the data were processed

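Islet RNA of 1 WT and 1 KO library was analysed, by genotype label. FPKM values, 1 column per library, were deposited by the authors. The submitters' processing notes name mm10 (GRCm38). Aligner, counting tool, annotation, filters and strand settings: not given in the sources used here.

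FPKM values were used as deposited. Library totals of 14537660 (KO) and 19097001 (WT) were found by a search over low values, with which 99.6% of genes gave whole reads (tolerance 1e-05 plus 1e-09 of the read number, lengths from 60 to 30000 bases). The smallest such reads, for example 475 and 305 for Ldha and 71 and 73 for Rest, gave exact Clopper-Pearson 95% intervals of ratios and Poisson intervals of levels, and binomial intervals of family shares carried to the FPKM scale. True reads may be a whole multiple of these, so intervals can be too wide. They cover counting error only, since PCR copies are not independent molecules. Differences used a pseudocount of 1 FPKM and calls a 2-fold limit. "Expressed" means at least 1 FPKM in either library, which 5 of the 7 genes reached. No statistical test between the libraries was run, since each genotype has 1 library.

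The members and lists were chosen with earlier results of these data known. The rule for named genes took the 7 members, expressed paralogs, and up to 4 genes per list with the widest log2 ratio. Cgas, Bsg, Hk2, Hkdc1, Slc16a3, Trpm5, Dnmt3a, Dnmt1, Ezh1, Mpc1, Mpc2, Pcx, Pdha1, Pdhb, Mdh2, Slc25a11 and the marker genes past the limit were named outside it. Not every gene that the rule could take is reported here. No gene was named for a like pattern, because 2 libraries give 1 difference. Alternatives were pseudocounts of 0.1 and 5, no floor, a floor of 5 FPKM, 3 scalings, and removal of a lowess trend (fraction 0.3, 3 iterations, statsmodels 0.14.6) on GC content and log2 length from GENCODE M21. Python 3.11.15 and SciPy 1.17.1 were used.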

Additional observations from a re-analysis of the deposited data

How the results depend on the processing

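Of 54 values of the 7 genes under 8 alternatives, 53 lay above 0. Part of this tally was fixed in advance. A change of floor leaves a gene's own value as reported, and a pseudocount cannot turn its sign. The exception in sign was Acot7, at -0.0052 after removal of the GC and length trend. In that setting Ldha (0.69) and Hk1 (0.17) were also lower than reported. Slc16a1 (0.58), Rest (0.45), Oat (0.21) and Zfp36l1 (1.28) were higher than reported, and the median of the 7 was 0.45. With a pseudocount of 5, Ldha was 0.65 and Zfp36l1 0.92, 0 members were past 2-fold and their median was 0.30. With a pseudocount of 0.1, 2 were past it (Zfp36l1 and Ldha). The median of the members was 0.55 over the 5 that passed a floor of 5 FPKM, the same 5 that passed 1 FPKM. It was 0.31 with sums of 1000000 and 0.30 with equal sums without the 20 highest genes. Those scalings moved the median of all genes to -0.049 and -0.050, shifts of -0.13 each, and relative to it Ldha stayed at 0.87 and 0.84 and Zfp36l1 at 1.18 and 1.15. Over all expressed genes 868 were higher and 482 lower. The higher count was 1556 and 305 with pseudocounts of 0.1 and 5, 576 without the 20 highest genes and 394 with the trend removed. The lower count was 181 with a pseudocount of 5, 793 with sums of 1000000 and 724 without the 20 highest genes. Higher genes made up 64.3% of calls, against 46.5% with sums of 1000000 and 44.3% without the 20 highest genes. Shares were also taken of the smallest recovered reads, not divided by length. True reads may be a different whole multiple of these for each gene. Such values are therefore not shares of true reads and are no check of the FPKM shares. In the KO and WT libraries, Hk1 was 89.4% and 91.2%, Ldha 47.3% and 43.8%, and Slc16a1 31.4% and 29.9%. Acot7 was 12.6% and 9.21%, and Zfp36l1 20.8% and 11.03%. No paired analysis was possible because each genotype has 1 library. The cause of these moves was not tested. Counting error limits Slc16a1 and Rest most.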

Other observations

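Silencing of Hk1 and Ldha as β-cells mature is known to involve DNA methylation by DNMT3A, so genes of DNA methylation and of Polycomb repression were read as a list. Of 11 expressed genes none was past 2-fold, and the median log2 ratio was -0.079, against 0.077 over all expressed genes. Dnmt3a was at 5.83 FPKM in the WT library and 5.13 FPKM in the library labelled KO, a ratio of 0.881 (counting interval 0.830 to 0.935). Its log2 ratio was -0.16, or -0.048 after removal of the GC and length trend. With the library labelled KO first, Dnmt1, the maintenance methyltransferase, was at 7.15 and 6.44 FPKM, and Dnmt3b, the other de novo enzyme, at 2.01 and 1.17 FPKM. The Polycomb genes differed among themselves: Ring1 was at a log2 ratio of 0.98 (0.36 after removal of the GC and length trend). Rnf2, its close relative, and Suz12 were both at -0.57 (-0.25 and -0.20 after that removal). Ezh1, a histone methyltransferase of resting cells, was at 18.3 and 14.8 FPKM.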
